A study of Mus musculus with 18 samples.

Results

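Transcript abundance was described in whole dorsal root ganglia (DRG), the clusters of sensory neuron cell bodies beside the spinal cord, of mice that served as littermate controls in a study of 3 sodium channel knockout lines. The members are the 9 arrays titled as wild type among the 18 arrays of the series, 3 each from the Nav1.7 (gene *Scn9a*), Nav1.8 (*Scn10a*) and Nav1.9 (*Scn11a*) lines, and no knockout array enters any value unless it is named. All 9 samples are labelled wild type and untreated tissue was taken from every spinal level. The methods give mice of both sexes aged 8 to 12 weeks and name no strain for these lines. The Nav1.7 knockouts were conditional, from floxed *Scn9a* mice crossed with mice carrying Cre under the Advillin gene *Avil*, and whether the Nav1.7 littermates carried a floxed allele is not stated. Nor is it stated whether each array held 1 animal, so a p-value here covers no more than the spread among these samples, and 3 arrays a line limit the precision.

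A DRG is made of the cell bodies of sensory neurons, each wrapped by satellite glia, and of bundles of their axons, which are ensheathed by Schwann cells. The neurons include nociceptors, which detect damaging heat, cold, pressure and chemicals, and larger myelinated neurons that sense touch and limb position. Fibroblasts of the capsule, blood vessels, resident macrophages and the blood held in those vessels also give RNA to a whole ganglion. In such bulk RNA, fewer cells of a type and less RNA per cell cannot be told apart.

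Each array (an Affymetrix mouse genome expression array) gives a log2 intensity per probe set, a group of short probes for 1 transcript. A gene was represented by its brightest probe set, the one with the highest mean over the 9 arrays, and 18193 genes were ranked. The 1819 genes of the brightest 10% were called bright, the 9096 genes of the lower 50% dim, and the 7278 between them middling. Bright genes lie at 10.92 or more and dim genes at 7.62 or less on the log2 scale, and the whole order runs from 3.05 to 14.50. Just inside the bright bound are *Usp33*, *Daam1* and *Bap1*, just outside it *Psmd8*, *Pacsin1* and *Agfg1*, all with a mean of 10.92. *Tmem63c*, *Adamts3* and *Uevld* (each 7.62) are the last middling genes, and *Rrp1b*, *S1pr1* and *Nyap1* (each 7.62) the first dim ones. Probes differ in how strongly they bind, so the order is one of signals and not of molecules per cell, and no detection calls were used.

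The order was nearly the same in every array. Spearman's rho between pairs of arrays over all genes was 0.994 to 0.998, and 1600 of the 1819 bright genes (88.0%) were in the brightest 10% of each array taken alone. Pearson's r was at least 0.997 within a line and at most 0.996 between lines, so each array was closest to its own line. Besides the channel line, other measures separated the groups. *Xist*, the RNA that coats the inactive X chromosome of females, was 11.97 to 12.29 in the 3 Nav1.7 littermates and 5.24 to 5.65 in the other 6 arrays, while the Y-linked *Eif2s3y*, *Kdm5d* and *Uty* were 2.86 to 4.86 against 6.86 to 9.45. The 3′ minus 5′ difference of the actin control probe sets, which grows as RNA is broken or copied incompletely, was 1.25 to 1.72 on the log2 scale in the Nav1.8 littermates and 0.79 to 0.96 in the other 6. Where all 3 Nav1.7 arrays stand to 1 side, line and *Xist* class cannot be told apart. Where all 3 Nav1.8 arrays do, line and this actin difference cannot. Neither *Xist* nor the actin difference sets the Nav1.9 littermates apart from both other lines. The same difference of the Gapdh control probe sets does. It was 0.08 to 0.10 in the Nav1.9, 0.17 to 0.25 in the Nav1.7 and 0.58 to 1.15 in the Nav1.8 littermates. Where all 3 Nav1.9 arrays stand to 1 side, line and this Gapdh difference cannot be told apart. The pyruvate carboxylase difference overlapped between lines (2.98 to 3.17). Anything else shared by the 3 arrays of a line cannot be told apart from line either.

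The genes of the axon skeleton gave the strongest signals of the neuronal lists. The brightest gene of all was *Nefl*, the light neurofilament subunit, at 14.50, 14.50 and 14.51 in the Nav1.7 littermates, 14.49, 14.54 and 14.45 in the Nav1.8 littermates and 14.50, 14.53 and 14.49 in the Nav1.9 littermates. The 9 arrays lie between 14.45 and 14.54, and the lines overlap. Of the 5 neuronal intermediate filament genes, 4 were bright: *Nefl*, *Nefh* (13.81), *Prph* (13.75), the peripherin of peripheral neurons, and *Nefm* (13.68). *Ina*, the alpha-internexin found mostly in central neurons, was middling at 9.46. Of 20 genes of microtubules and axonal transport, 17 were bright and none dim. Their brightest was the tubulin *Tuba1a* (14.36), rank 4 of all genes, followed by the stathmin *Stmn3* (14.10), the kinesin light chain *Klc1* (13.86) and *Stmn2* (13.83). The motor genes *Kif5a* (13.38), *Kif1b* (13.38) and *Kif5c* (13.01) were bright too, while *Kif1a* (8.82) and the stathmin *Stmn4* (8.15) were middling.

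Pan-neuronal genes followed the same pattern, with 17 of 20 bright and none dim. They included *Map1b* (13.74), the release protein *Snap25* (13.61), the ubiquitin hydrolase *Uchl1* (12.97), *Tubb3* (12.78) and *Rbfox3* (12.56), whose protein is the NeuN antigen. *Nrsn1*, *Elavl3* and *Nsg1* were middling at 10.19, 9.59 and 8.49. Of 26 genes of synaptic vesicles and release, 14 were bright, led by *Cplx1* (13.72), *Snap25*, *Nsf* (12.64) and *Rab3a* (12.59). Of the vesicular glutamate transporter genes listed, *Slc17a6* was bright (12.38) and *Slc17a7* was dim (5.82).

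**Figure D1:**
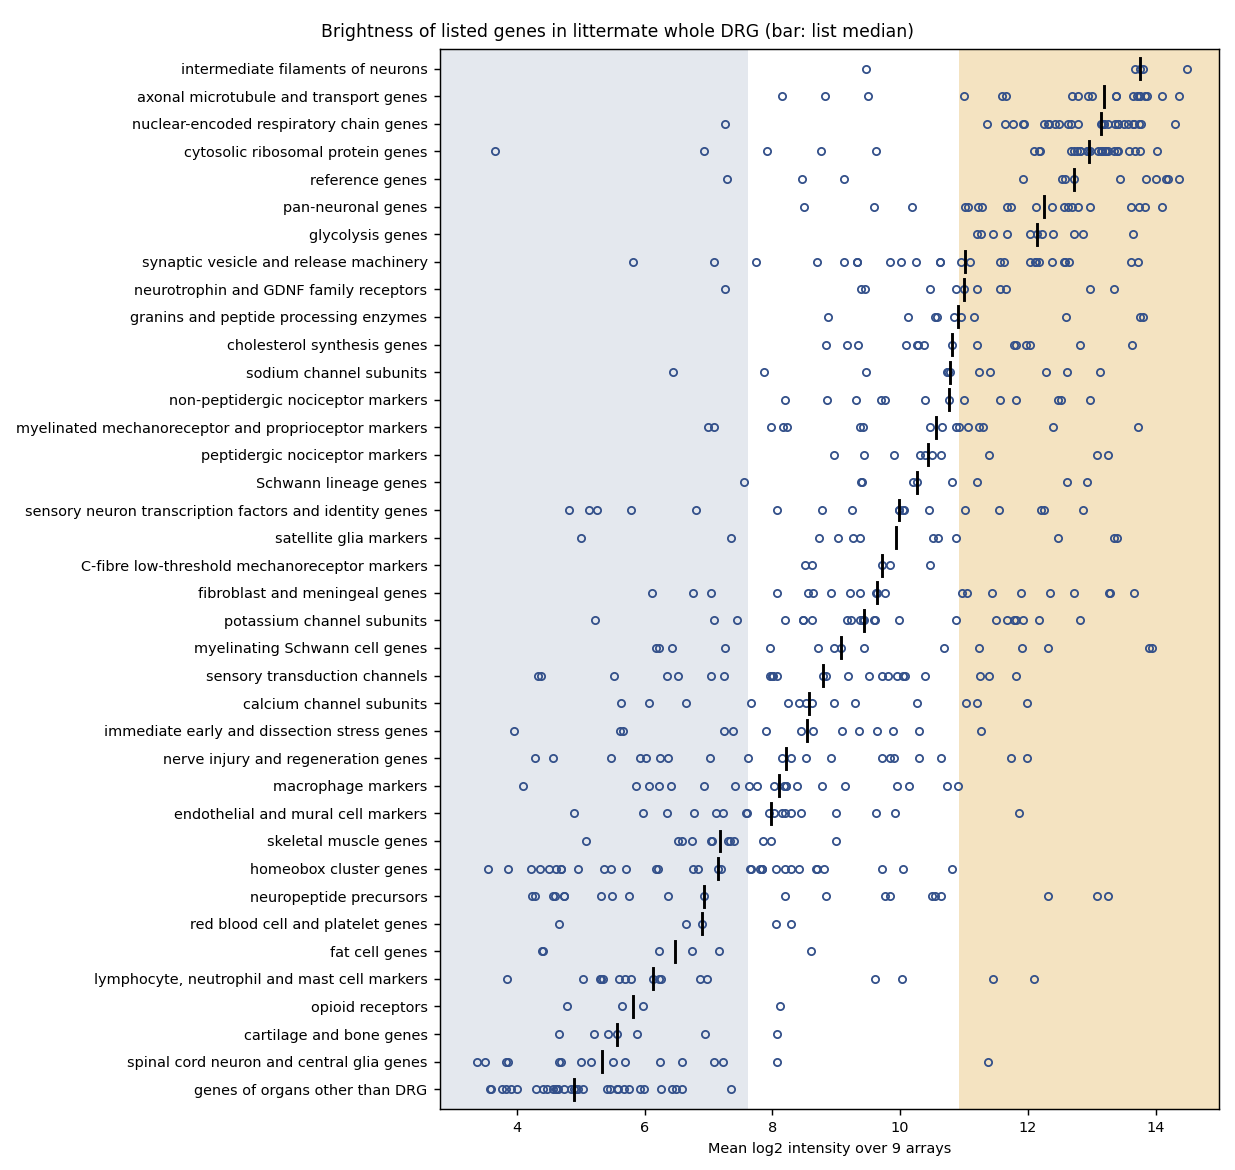
Each circle is the mean log2 intensity of 1 listed gene over the 9 littermate arrays, each row is 1 gene list and the black bar is the list median. The tan band holds bright genes (10.92 or more) and the grey band dim genes (7.62 or less). Most neurofilament, transport and respiratory chain genes lie in the bright band, and all 33 genes of other organs lie in the dim band.

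Many transcripts that every cell uses were bright as well. Of 30 nuclear-encoded genes of the respiratory chain, 29 were bright, among them the cytochrome oxidase subunits *Cox6a1* (14.30) and *Cox5b* (13.78), and *Cox7c* (7.25) alone was dim. All 11 glycolysis genes were bright, from *Aldoa* at 13.65 to *Pfkm* at 11.20. Of 30 cytosolic ribosomal protein genes, 25 were bright, with *Rps29* at 14.03, but *Rpl12* (6.93) and *Rps16* (3.66) were dim. *Rpl12* and *Rps16* are each represented by 1 probe set named for that gene alone, and probe sets shared with other genes were left out. The other genes among the 25 brightest were the thymosins *Tmsb10* (14.44) and *Tmsb4x* (14.37), *Ndrg4* (14.32), the chaperone *Hspa8* (14.22), *Tpt1* (14.20), *Cd24a* (14.18), the ferritin *Fth1* (14.16), *Actg1* (14.16), *Ints6*, *Txn1*, *Ywhab*, the synuclein *Sncg* (14.03), *Eef1a1*, *Skp1*, *Rtn3*, *Dpysl2*, *Anxa2*, *Fstl1* and the myelin genes *Mbp* and *Pmp22*. *Ints6* (14.06) has 4 probe sets, of which the dimmest is at 6.83.

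Among transcription factors and identity genes of sensory neurons, 5 of 18 were bright, 8 middling and 5 dim. *Avil*, which codes for the actin-binding protein advillin and marks sensory neurons, was highest at 12.80, 12.94 and 12.84 in the Nav1.7 littermates, 12.79, 12.79 and 12.84 in the Nav1.8 littermates and 12.92, 12.89 and 12.94 in the Nav1.9 littermates. The Nav1.8 arrays are below the Nav1.9 arrays and the Nav1.7 arrays overlap both. *Klf7* (12.26), *Isl1* (12.20), *Maf* (11.55) and *Prrxl1*, also called *Drgx* (11.02), were the other bright ones. *Pou4f1*, which codes for Brn3a (9.99), and *Runx1*, a factor of nociceptors (9.98), were middling. Factors that act while the ganglion forms were dim, with *Neurod1* at 5.79, *Neurog2* at 5.13 and *Neurog1* at 4.82, and so was *Runx3*, a factor of proprioceptors (6.80).

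Most markers in the 4 lists of sensory neuron classes lay above the dim range. Of 13 markers of non-peptidergic nociceptors 6 were bright and none dim, and of 10 markers of peptidergic nociceptors 3 were bright and none dim. The GDNF receptor *Ret* (12.97), the complement regulator *Cd55* (12.52), *Plxnc1* (12.47) and the ATP-gated channel *P2rx3* (11.81) led the first list. Substance P precursor *Tac1* (13.25), the CGRP beta gene *Calcb* (13.08) and the capsaicin receptor *Trpv1* (11.39) led the second. *P2rx3* read 11.78, 11.89 and 11.76 in the Nav1.7 littermates, 11.78, 11.73 and 11.80 in the Nav1.8 littermates and 11.84, 11.89 and 11.86 in the Nav1.9 littermates, with the Nav1.8 arrays below the Nav1.9 arrays and the Nav1.7 arrays overlapping both. Markers of C-fibre low-threshold mechanoreceptors were middling in 5 of 5 cases, from *Tafa4* (10.47) and tyrosine hydroxylase *Th* (9.84) down to *Slc16a12* (8.51). Of 16 markers of myelinated mechanoreceptors and proprioceptors, 6 were bright, among them *Cplx1*, *Ldhb* (12.39), *Vsnl1* (11.30) and the nodal channel *Scn8a* (11.24), while parvalbumin, *Pvalb*, was middling at 10.65 and *Kcns1* and *Whrn* were dim (7.09 for *Kcns1*).

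Sodium channel genes spanned the classes. *Scn11a*, the gene of Nav1.9, was the highest of the 11 measured subunits at 13.32, 13.36 and 13.28 in the Nav1.7 littermates, 13.19, 13.20 and 13.24 in the Nav1.8 littermates and 12.61, 13.27 and 12.69 in the Nav1.9 littermates. Nav1.9 littermates 1 and 3 were the lowest 2 of the 9 arrays, Nav1.9 littermate 2 lay among the other lines, and the line difference did not pass (adjusted p = 0.0714, limma F test). *Scn7a*, the Nax channel of Schwann cells and some neurons, came next (12.61), then *Scn9a*, the gene of Nav1.7, at 12.35, 12.34 and 12.24 in the Nav1.7 littermates, 12.14, 12.13 and 12.08 in the Nav1.8 littermates and 12.37, 12.50 and 12.32 in the Nav1.9 littermates. For *Scn9a* the Nav1.8 littermates were below all other arrays (adjusted p = 0.0181, a 1.21-fold range of line means), a call that did not pass in 3 of the 9 fits that leave out 1 array (adjusted p up to 0.0559, without Nav1.8 littermate 3) and was lost with the actin 3′ to 5′ difference as a covariate (adjusted p = 0.394). *Scn10a*, the gene of Nav1.8 and a defining channel of nociceptors, was middling at 9.40, 9.52 and 9.47 in the Nav1.7 littermates, 9.74, 9.54 and 8.96 in the Nav1.8 littermates and 9.49, 9.48 and 9.60 in the Nav1.9 littermates, measured by 1 probe set. The embryonic *Scn3a* was dim (6.44).

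Of 24 potassium channel genes 7 were bright, led by the axonal *Kcna1* (12.81), the channel-interacting *Kcnip4* (12.18) and the beta subunits *Kcnab2* (11.93) and *Kcnab1* (11.82), and *Kcnh7* was the dimmest (5.23). Calcium channel genes were bright in 3 of 14 cases: *Cacna2d1* (11.99), the binding site of gabapentin, *Cacnb4* (11.21) and the N-type *Cacna1b* (11.03). Of 25 sensory transduction channels 3 were bright, *P2rx3*, *Trpv1* and the acid sensor *Asic3* (11.25). The irritant receptor *Trpa1* (10.39) and the touch channel *Piezo2* (9.72) were middling. The cold receptor *Trpm8*, which few DRG neurons use, was dim at 4.39, within the range of the genes of other organs.

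Peptide genes split widely. Of 21 neuropeptide precursors 3 were bright (*Tac1*, *Calcb* and *Nmb* (12.32)), 7 middling and 11 dim. Galanin *Gal* (10.64), neurotensin *Nts* (9.84), the natriuretic peptide *Nppb* (9.76) and proenkephalin *Penk* (8.84) were middling, and neuropeptide Y *Npy* (6.36), *Crh* (4.73), *Vip* (4.28) and prodynorphin *Pdyn* (4.24) were dim. Genes of the granules that carry peptides were brighter, with 5 of 10 bright and none dim: carboxypeptidase E *Cpe* (13.80), *Scg3* (13.75) and *Scg2* (12.60) led. None of the 4 opioid receptor genes was bright. The nociceptin receptor *Oprl1* (8.12) was middling and *Oprm1* (5.97), *Oprk1* (5.65) and *Oprd1* (4.79), the mu, kappa and delta receptors, were dim. *Oprm1* read 5.99, 5.98 and 5.90 in the Nav1.7 littermates, 5.91, 5.76 and 5.92 in the Nav1.8 littermates and 6.18, 5.88 and 6.20 in the Nav1.9 littermates, within the 3.58 to 7.36 covered by the genes of other organs. A limma F test of lines called 0 of these 4 at an adjusted p under 0.05, against 23.9% of all genes, with 0 at an unadjusted p under 0.05 (38.5% of all genes) and 0 by analysis of variance (17.8%). Receptors of neurotrophins, the GDNF family and related cytokines were bright in 6 of 11 cases, among them *Lifr* (13.35), *Ret*, *Il6st* (11.66) and *Gfra2* (11.57).

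Glial genes were present in each class. Of 12 satellite glia markers 3 were bright: apolipoprotein E *Apoe* (13.40), the fatty acid binding protein *Fabp7* (13.35) and glutamine synthetase *Glul* (12.47). *Cdh19* (10.88), *Gja1* (10.52) and the potassium channel *Kcnj10* (9.37) were middling, and *Gfap*, a filament of reactive glia, was dim at 4.92, 4.84 and 4.96 in the Nav1.7 littermates, 5.06, 5.08 and 4.95 in the Nav1.8 littermates and 4.99, 5.03 and 5.24 in the Nav1.9 littermates. Of 15 genes of myelinating Schwann cells 5 were bright, with *Mbp* (13.95), *Pmp22* (13.89), *Cnp* (12.32) and *Mal* (11.91) first. *Mbp* read 13.96, 13.93 and 13.89 in the Nav1.7 littermates, 14.01, 14.00 and 13.92 in the Nav1.8 littermates and 14.00, 13.98 and 13.84 in the Nav1.9 littermates, and the lines overlap. The myelin factor *Egr2* (8.97) was middling and *Mag* (7.26), *Gjb1* (6.43), *Gjc3* (6.22) and *Cldn19* (6.18) were dim. Among 9 genes shared by the Schwann lineage, *S100b* (12.93), *Scn7a* and *Ngfr* (11.21) were bright and *Sox10* (10.27) and *Erbb3* (10.21) middling. Of 15 cholesterol synthesis genes, which myelinating cells use heavily, 7 were bright and none dim, from *Hmgcs1* (13.63) to *Mvk* (8.85).

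Connective tissue gave strong signals and vessels and immune cells weaker ones. Of 21 fibroblast and meningeal genes 9 were bright, among them *Apod* (13.66), decorin *Dcn* (13.29), *Ptgds* (13.27), *Sparc* (12.73) and the collagen *Col1a2* (12.34). *Ptgds*, a prostaglandin synthase of the meninges, read 12.58, 12.25 and 13.63 in the Nav1.7 littermates, 13.65, 13.41 and 13.44 in the Nav1.8 littermates and 13.21, 13.69 and 13.56 in the Nav1.9 littermates. Nav1.7 littermates 1 and 2 were the lowest 2 arrays. Of 18 endothelial and mural genes only the pericyte gene *Rgs5* (11.86) was bright, and *Pecam1* was dim at 4.90. No macrophage marker was bright and 13 of 20 were middling, led by the class II gene *H2-Aa* (10.91), lysozyme *Lyz2* (10.73) and the receptor *Csf1r* (10.14). Markers of lymphocytes, neutrophils and mast cells were dim in 13 of 17 cases. The exceptions were neutrophil genes: *S100a8* (12.10) and *S100a9* (11.45) were bright and *Ngp* (10.03) and *Camp* (9.60) middling, while myeloperoxidase *Mpo* (6.97) was dim.

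Genes of tissue beside the ganglion were mostly dim. Skeletal muscle genes were dim in 9 of 12 cases, fat cell genes in 5 of 6 and cartilage and bone genes in 6 of 7. Of 16 genes of spinal cord neurons and central glia 14 were dim, with the oligodendrocyte genes *Mog* (3.50) and *Olig2* (3.38) and the motor neuron gene *Mnx1* (3.87) near the floor. The astrocyte water channel *Aqp4* (8.08) was middling, and *Camk2a*, which DRG neurons also express, was bright at 11.37. Genes of organs other than DRG, such as albumin *Alb* (4.57), insulin *Ins2* (6.42) and protamine *Prm1* (6.59), were dim in 33 of 33 cases, with a median of 4.90, a range of 3.58 to 7.36 and a 95% percentile of 6.53. In all, 11310 genes (62.2%) had a mean above that percentile. Families counted after the lists were seen gave the same kind of contrast: 39 of 39 olfactory receptor genes, 32 of 32 vomeronasal receptor genes and 20 of 20 beta-defensin genes were dim, against 2 of 44 complex I (Nduf) genes. Homeobox cluster genes, which mark position along the spine, were bright in 0 of 33 cases and middling in 15, with *Hoxa9* (10.81), *Hoxd1* (10.04) and *Hoxd8* (9.72) first and *Hoxb1*, a hindbrain gene, at 3.55.

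The class of a gene depended on the probe set that stands for it. Among 9010 genes with several probe sets, the brightest and dimmest differed by a median of 2.40 on the log2 scale, and by 4.74 among bright genes. Of 1375 bright genes with several probe sets, 772 (56.2%) also had a probe set in the dim range. When the mean of all probe sets stood for a gene, 1091 of the 1819 bright genes (59.98%) stayed bright, and with the dimmest probe set 821 (45.1%) did. Among the gene lists, that of neurotrophin and GDNF family receptors fell furthest in the order when this mean was used. The dimmest of the 4 *Prph* probe sets read 5.16 against 13.75 for the brightest. By contrast *Nefl* kept 13.71 in its dimmer probe set and *Isl1* 10.96.

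The sequence in front of the start, which the ranking did not use, is described here by class, with no test. In RefSeq promoters (GRCm38.p6, genes with 1 listed start, 250 bases before to 50 bases after it), a ratio of observed to expected CpG below 0.6 was found in 17.4% of 1155 bright, 20.6% of 4621 middling and 64.3% of 6015 dim genes. The share was 42.6% of the 11791 measured genes with 1 start and 64.3% of all 22862 promoters with 1 start, near that of the dim genes. Searched on the gene's strand, the motif TATAA had to lie wholly in the window 40 to 20 bases before the start. The motif was in 2.68% of these bright, 1.26% of these middling and 6.80% of these dim genes, against 3.88% of all 22862 such promoters. Of 24 genes of other organs 29.2% held it and all had a low CpG ratio, as did all 12 macrophage genes, while 4.76% of 21 respiratory chain genes did. The 60 bases before the start are shown for 1 bright filament gene, 1 bright respiratory gene, 1 bright satellite glia gene and 1 neutrophil gene, with TATAA in capitals where the window holds it.
Prph: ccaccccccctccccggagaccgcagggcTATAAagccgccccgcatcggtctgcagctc
Cox6a1: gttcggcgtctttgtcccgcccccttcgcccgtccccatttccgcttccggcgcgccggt
Fabp7: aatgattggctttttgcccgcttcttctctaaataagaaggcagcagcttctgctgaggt
S100a8: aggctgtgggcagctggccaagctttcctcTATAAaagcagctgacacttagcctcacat

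*Prph* lies at chr15:99055114-99055173 (plus strand), *Cox6a1* at chr5:115348959-115349018 (minus strand), *Fabp7* at chr10:57784863-57784922 (plus strand) and *S100a8* at chr3:90669011-90669070 (plus strand). The *Prph* and *S100a8* stretches hold TATAA, and those of *Cox6a1* and *Fabp7* do not hold these letters in the window. The CpG ratio of the 300 bases was 1.08 for *Cox6a1*, 0.324 for *Prph*, 0.276 for *Fabp7* and 0.214 for *S100a8*. A match of letters is a description of the sequence and not a measured site.

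The lines were then compared with each other. Differences were small but often larger than the spread within a line. The 3 line means of a gene spanned a median of 0.127 (log2) among bright, 0.172 among middling and 0.138 among dim genes, 1.09-fold, 1.13-fold and 1.10-fold, against a median within-line SD of 0.0462, 0.0656 and 0.103. A limma F test across the 3 groups called 4345 of 18193 genes at an adjusted p under 0.05, 23.9%. By class it called 499 of 1819 bright (27.4%), 2598 of 7278 middling (35.7%) and 1248 of 9096 dim genes (13.7%). Far fewer were called with a range over 1.5-fold, 483 genes or 2.65%, and 27 of these were bright. In 6797 genes (37.4%) the 3 arrays of 1 line did not overlap the other 6, and among bright genes in 1002. Counts rest on few arrays: without Nav1.8 littermate 1 the test called 2683 genes and 297 bright ones, and without Nav1.8 littermate 2 it called 2790 and 291. With the Nav1.7 littermates left out 1272 genes differed between the other lines, with the Nav1.8 littermates left out 1377, and with the actin 3′ to 5′ difference as a covariate 1068, alternatives chosen after seeing the data.

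**Figure D2:**
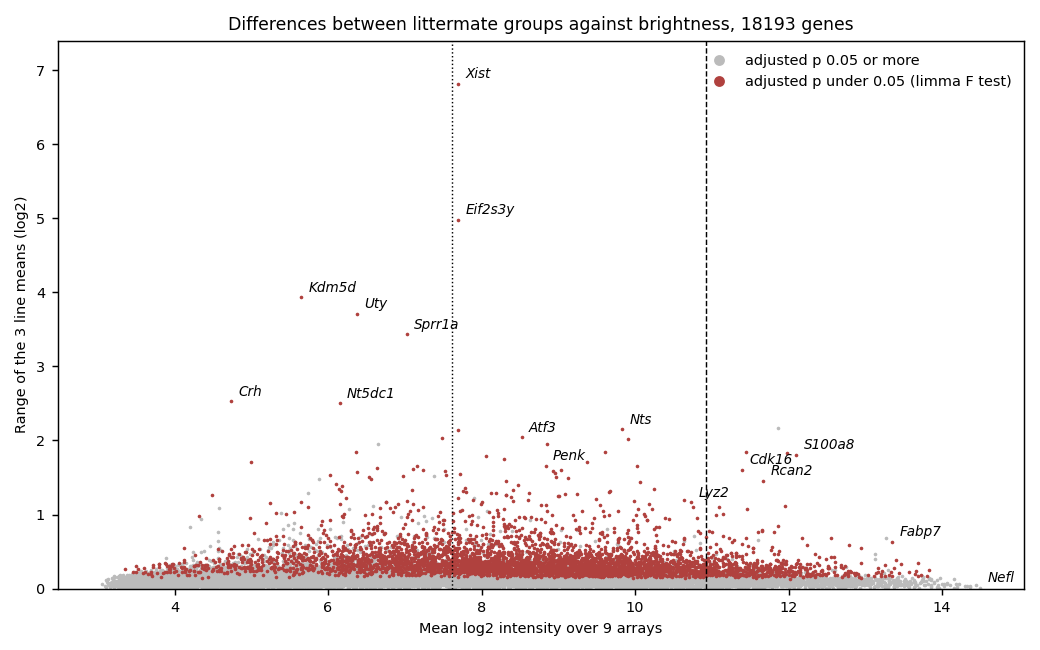
Each point is 1 of 18193 genes, with its mean log2 intensity over 9 arrays on the x axis and the range of its 3 line means on the y axis. Red points passed the limma F test at an adjusted p under 0.05, and the dotted and dashed lines mark the dim (7.62) and bright (10.92) bounds. Most genes lie under 0.5 at any brightness, and *Xist* and Y-linked genes stand highest.

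Pairs of lines gave 3781 called genes for Nav1.8 minus Nav1.7 (2551 higher, 1230 lower), 1909 for Nav1.9 minus Nav1.7 (1218 higher, 691 lower) and 1834 for Nav1.9 minus Nav1.8 (707 higher, 1127 lower). These pairs share arrays. A gene named below as different between lines passed whichever array was left out, unless it is said otherwise beside it. The 483 genes called with a range over 1.5-fold were each counted once. Where all the lines lay apart, a gene counted only for the later of its highest and lowest lines, in the order Nav1.7, Nav1.8, Nav1.9. Counted so, the Nav1.7 littermates lay below both other lines in 181 and above in 37. The Nav1.9 littermates lay above in 107 and below in 33, and the Nav1.8 littermates above in 76 and below in 35. The Nav1.7 and Nav1.8 counts are therefore lower bounds. By chromosome, 1.23% to 4.06% of genes were among these 483, with X at 3.40%.

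The steadiest genes included cytoskeletal and ribosomal genes. The 10 bright genes with the smallest SD over the 9 arrays were *Tpt1*, *Actg1*, *Rps29*, *Rtn3*, *Dpysl2*, *Ywhah*, *Sptbn1*, *Atxn10*, *Fhl1* and *Cert1*. *Dpysl2*, a microtubule-binding protein of growing axons, stayed between 13.90 and 13.94. *Rtn3*, an endoplasmic reticulum protein, stayed between 13.95 and 13.99. The respiratory chain list had 1 of 30 genes called (*Uqcrfs1*, whose call was lost in 2 of the 9 fits that leave out 1 array), against 23.9% of all genes, and the mean of its 30 genes was 12.69 to 12.74 in every array. The pan-neuronal list had 7 of 20 called, with list means of 11.93 to 12.05, and the intermediate filaments 2 of 5, against the same 23.9%. *Nefm* was the larger of these, at 13.60 ± 0.0451, 13.55 ± 0.0373 and 13.90 ± 0.0461 in the Nav1.7, Nav1.8 and Nav1.9 littermates (SD, n = 3 each). For *Nefm* the Nav1.9 arrays were above all others (adjusted p = 0.00238, limma), a call that passed with each array left out as well (highest adjusted p = 0.0108).

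Genes of nerve injury and regeneration were mostly higher in the Nav1.9 littermates. Of the 20 listed genes 16 were called, against 23.9% of all genes, and 11 of them over 1.5-fold, against 2.65%. Analysis of variance called 8 of the 20, against 17.8% of all genes. The highest line mean was that of the Nav1.9 littermates in 18, against 25.3% of all genes. *Atf3*, a transcription factor induced in injured neurons, read 7.64, 7.39 and 7.57 in the Nav1.7 littermates, 8.48, 8.33 and 8.60 in the Nav1.8 littermates and 10.35, 8.96 and 9.41 in the Nav1.9 littermates. Each Nav1.9 array was above every other array (adjusted p = 0.00333, 4.12-fold range), and the call passed with each array left out as well (highest adjusted p = 0.0123). *Sprr1a*, a protein of regrowing axons, read 5.49, 5.55 and 5.53 in the Nav1.7 littermates, 6.36, 6.13 and 7.29 in the Nav1.8 littermates and 10.40, 7.77 and 8.70 in the Nav1.9 littermates, a 10.8-fold range in the same order (adjusted p = 0.00614). Nav1.9 littermate 1 was the highest array for both genes. *Npy* had line means of 5.52 ± 0.169, 6.21 ± 0.16 and 7.36 ± 0.642 (SD, n = 3 each), and *Socs3*, a brake on cytokine signalling, 7.24 ± 0.0636, 7.47 ± 0.136 and 8.15 ± 0.163, with adjusted p of 0.00377 and 0.000651. *Sox11*, *Jun*, *Bdnf* and *Stmn4* were also highest in the Nav1.9 littermates and were called. *Nts* spanned 4.44-fold but its call was lost in 6 of the 9 fits that leave out 1 array (adjusted p up to 0.0906). *Gal*, *Il6*, *Vip* and *Csrp3* did not pass (adjusted p = 0.0647 for *Gal* and 0.0662 for *Il6*).

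The mean of the 20 injury genes was 7.68, 7.68 and 7.56 in the Nav1.7 littermates, 8.01, 7.93 and 8.02 in the Nav1.8 littermates and 9.03, 8.29 and 8.51 in the Nav1.9 littermates. The lines do not overlap, and the Nav1.9 arrays spread most. The call held in 9 of the 16 genes whichever array was left out. Counts of called injury genes were 6 without the Nav1.7 littermates, 10 without the Nav1.8 littermates and 8 with the actin covariate, against 7.0%, 7.6% and 5.9% of all genes under these settings. The 6 called between the Nav1.8 and Nav1.9 littermates alone were *Socs3*, *Jun*, *Bdnf*, *Nts*, *Gap43* and *Gadd45a* (limma, adjusted p up to 0.0456). In that comparison *Atf3*, *Sprr1a*, *Npy*, *Stmn4* and *Sox11* did not pass (adjusted p = 0.0675, 0.0589, 0.0504, 0.0648 and 0.0957). With the covariate the calls of *Sox11* and *Nts* were among those lost (adjusted p = 0.0724 and 0.0926, limma F test). Immediate early and dissection stress genes were called in 5 of 14 cases, against 23.9% of all genes, and their list mean was 7.93 to 8.16 in the Nav1.7, 8.20 to 8.28 in the Nav1.8 and 8.18 to 8.27 in the Nav1.9 littermates. What part handling of the tissue had in the injury genes was not tested.

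**Figure D3:**
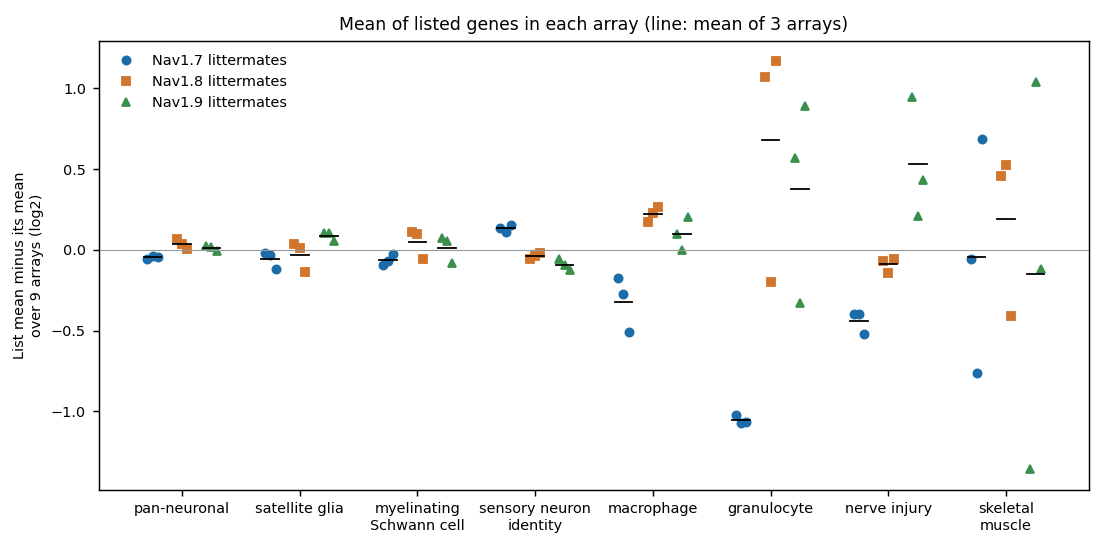
Each point is the mean log2 intensity of a gene list in 1 array minus that list's mean over the 9 arrays, for 8 lists, and the black line is the mean of the 3 arrays of a line. Pan-neuronal and glial lists stay within 0.2 of 0, the granulocyte and macrophage lists are lowest in the Nav1.7 littermates, the injury list is highest in the Nav1.9 littermates, and the muscle list spreads within every line.

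Called macrophage genes had their lowest line mean in the Nav1.7 littermates. Of 20 macrophage markers 11 were called, against 23.9% of all genes, and 9 over 1.5-fold, against 2.65%. All 11 passed whichever array was left out, as 11.3% of all genes did. *C1qa*, a complement component of macrophages, read 7.85, 7.61 and 7.37 in the Nav1.7 littermates, 8.27, 8.55 and 8.49 in the Nav1.8 littermates and 8.64, 8.52 and 8.61 in the Nav1.9 littermates. *Lyz2* read 10.07, 9.95 and 9.95 in the Nav1.7 littermates, 10.99, 10.70 and 11.43 in the Nav1.8 littermates and 11.25, 10.78 and 11.44 in the Nav1.9 littermates. For both genes the Nav1.7 arrays lay below the other 6 (adjusted p = 0.00124 and 0.00524, limma F test), by 1.98-fold and 2.25-fold over the line means. *Csf1r*, *C1qb*, *C1qc*, *Tyrobp*, *Fcer1g*, *Ptprc*, *Fcgr3*, *Adgre1* and *Cx3cr1* were the others. With the Nav1.7 littermates left out, 0 of the 20 were called by limma between the Nav1.8 and Nav1.9 littermates (2 at an unadjusted p under 0.05), while 8 were called without the Nav1.8 littermates and 8 with the actin covariate, against 7.0%, 7.6% and 5.9% of all genes under these settings. Analysis of variance called 9, against 17.8%.

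Genes of neutrophils were among the bright genes with the widest line differences. *S100a8* read 11.05, 11.01 and 10.98 in the Nav1.7 littermates, 13.14, 12.08 and 13.24 in the Nav1.8 littermates and 12.67, 11.86 and 12.90 in the Nav1.9 littermates, and *S100a9* 10.35, 10.28 and 10.33 in the Nav1.7 littermates, 12.42, 11.32 and 12.74 in the Nav1.8 littermates and 12.05, 11.22 and 12.31 in the Nav1.9 littermates. The 3 Nav1.7 arrays are close together and below the other 6, and littermate 2 is the lowest array of both the Nav1.8 and the Nav1.9 line. The line difference passed for *S100a8* (adjusted p = 0.00771, 3.5-fold) and *S100a9* (adjusted p = 0.0106, 3.59-fold), and both passed with each array left out as well. With the actin covariate neither passed (adjusted p = 0.0506 and 0.0532). Of the 17 lymphocyte, neutrophil and mast cell markers 6 were called, 0 with the covariate and 1 by analysis of variance, against 23.9%, 5.9% and 17.8% of all genes. Unadjusted p in the 3-line test was under 0.05 for 8 of the 17. The mean of *S100a8*, *S100a9*, *Camp*, *Ngp* and *Mpo* was 9.01, 8.96 and 8.97 in the Nav1.7 littermates, 11.10, 9.83 and 11.20 in the Nav1.8 littermates and 10.60, 9.70 and 10.92 in the Nav1.9 littermates. Red cell and platelet genes went along in part: the erythrocyte anion exchanger *Slc4a1* read 7.97, 7.20 and 7.56 in the Nav1.7 littermates, 9.15, 7.57 and 9.15 in the Nav1.8 littermates and 7.88, 7.37 and 8.72 in the Nav1.9 littermates, and the platelet chemokine *Ppbp* 5.53, 4.46 and 6.11 in the Nav1.7 littermates, 8.29, 5.68 and 7.99 in the Nav1.8 littermates and 7.44, 5.99 and 8.36 in the Nav1.9 littermates, neither with a called difference (adjusted p = 0.231 and 0.127). Of the 5 such genes measured, the platelet factor *Pf4* was called (adjusted p = 0.0313), and its call did not pass in 6 of the 9 fits that leave out 1 array (adjusted p up to 0.103, without Nav1.7 littermate 3). In the Nav1.8 and Nav1.9 lines littermate 2 was the lowest array for *Ppbp* too. The amount of blood left in the ganglia was not measured.

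Vessel and connective tissue genes leaned the same way. *Cldn5*, the tight junction protein of endothelium, read 7.59, 7.55 and 7.39 in the Nav1.7 littermates, 8.52, 8.39 and 8.51 in the Nav1.8 littermates and 8.52, 8.40 and 8.43 in the Nav1.9 littermates, 1.95-fold over the line means, with the Nav1.7 arrays below all others (adjusted p = 3.24e-05). *Rgs5* had line means of 11.38 ± 0.327, 11.98 ± 0.0231 and 12.23 ± 0.0877 (SD, n = 3 each) and also passed (adjusted p = 0.00534). In all, 8 of 18 endothelial and mural genes and 13 of 21 fibroblast genes were called, against 23.9% of all genes, and 4 and 8 by analysis of variance, against 17.8%. Of the whole lists 0 and 1 had their highest line mean in the Nav1.7 littermates, against 28.6% of all genes. *Col3a1* and *Col1a2*, fibrillar collagens, spanned 1.61-fold and 1.38-fold, lowest in the Nav1.7 littermates. Without the Nav1.7 littermates 4 and 2 genes of these lists were called, against 7.0% of all genes.

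Some neuronal genes differed between lines as well. *Penk*, the enkephalin precursor, read 7.88, 7.77 and 7.90 in the Nav1.7 littermates, 9.51, 9.47 and 9.56 in the Nav1.8 littermates and 9.13, 9.10 and 9.21 in the Nav1.9 littermates. Its 3 lines do not overlap, the range was 3.16-fold (adjusted p = 6.04e-07), and the call passed with each array left out as well (highest adjusted p = 1.38e-05). *Scn2b*, a sodium channel beta subunit, read 11.17, 11.10 and 10.97 in the Nav1.7 littermates, 11.10, 11.11 and 11.22 in the Nav1.8 littermates and 10.05, 10.04 and 10.03 in the Nav1.9 littermates, 2.15-fold lower in the Nav1.9 littermates than in the highest line (adjusted p = 9.23e-06). *Runx1* had line means of 10.49 ± 0.065, 9.57 ± 0.123 and 9.86 ± 0.171 (SD, n = 3 each) and was highest in the Nav1.7 littermates (adjusted p = 0.000667). *Piezo2* read 10.05, 10.01 and 10.03 in the Nav1.7 littermates, 9.29, 9.21 and 9.28 in the Nav1.8 littermates and 9.89, 9.83 and 9.92 in the Nav1.9 littermates and was lowest in the Nav1.8 littermates (adjusted p = 2.16e-05), the line with the largest 3′ to 5′ difference. With the actin covariate the *Piezo2* call still passed (adjusted p = 0.00874, limma F test). Among identity genes, 7 of 18 were called, against 23.9% of all genes, and 13 had their highest line mean in the Nav1.7 littermates, against 28.6% of all genes. *Trpv1* (11.12 ± 0.119, 11.49 ± 0.0548 and 11.55 ± 0.0148, SD, n = 3 each) and *Smr2* (8.97 ± 0.0881, 9.58 ± 0.0585 and 9.78 ± 0.155) were lowest there. *Avil* and the adhesion molecule *Ceacam10* (8.88) did not pass (adjusted p = 0.239 and 0.0772), and the call of *Hoxb5* (8.42, adjusted p = 0.0333) did not pass in 4 of the 9 fits that leave out 1 array (adjusted p up to 0.0927, without Nav1.7 littermate 2).

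**Figure D4:**
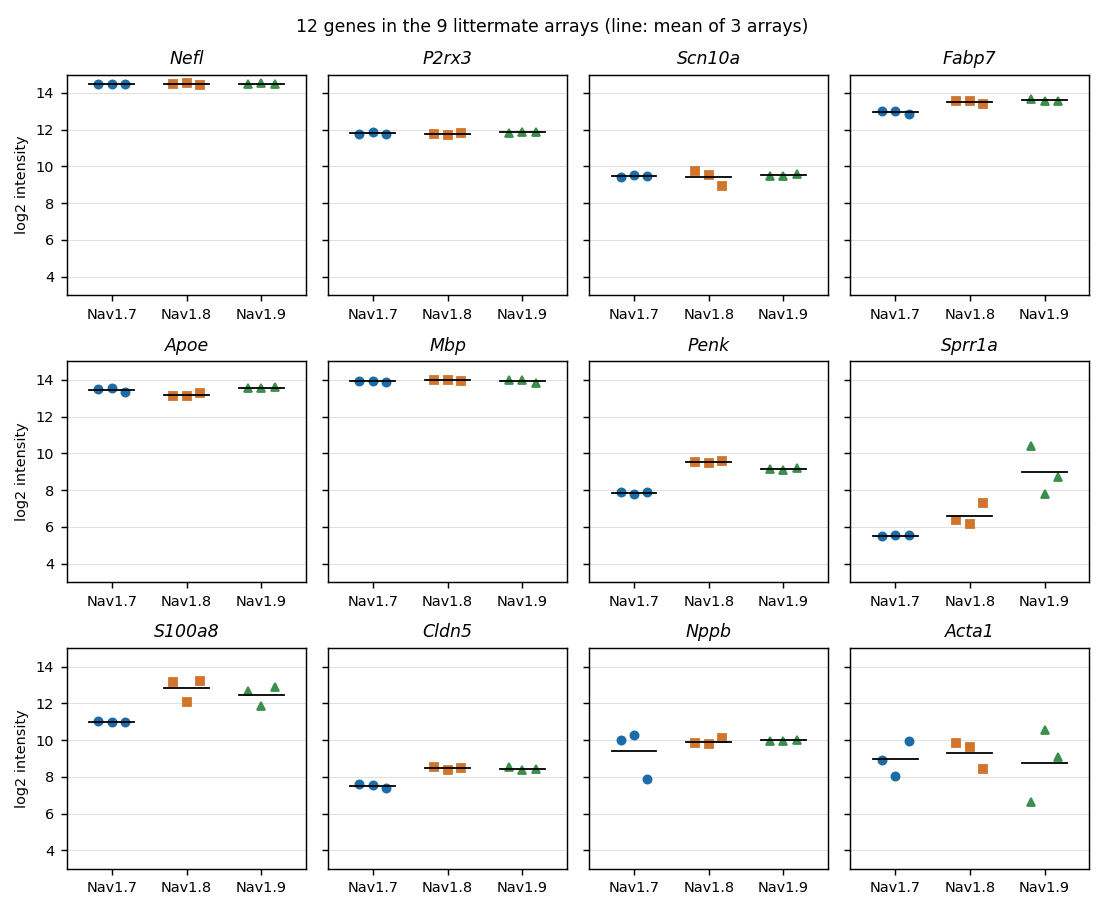
Log2 intensity of 12 genes in each of the 9 littermate arrays, by line, with the mean of 3 arrays as a black line. *Nefl*, *P2rx3* and *Mbp* are level across lines, *Penk*, *Cldn5* and *S100a8* are lowest in the Nav1.7 littermates, *Sprr1a* is highest in the Nav1.9 littermates, *Nppb* is low in 1 array and *Acta1* varies within each line.

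Glial genes were called in part. Of 12 satellite glia markers 4 were called and of 15 myelinating Schwann cell genes 6, and 7 of 9 Schwann lineage genes were, against 23.9% of all genes. With the actin covariate 1, 1 and 5 of these were called, against 5.9% of all genes. *Fabp7* read 13.01, 13.02 and 12.87 in the Nav1.7 littermates, 13.55, 13.55 and 13.39 in the Nav1.8 littermates and 13.67, 13.57 and 13.54 in the Nav1.9 littermates, with the Nav1.7 arrays below all others by 1.55-fold over the line means (adjusted p = 0.000666). *Apoe* instead read 13.49, 13.53 and 13.36 in the Nav1.7 littermates, 13.13, 13.11 and 13.30 in the Nav1.8 littermates and 13.57, 13.54 and 13.59 in the Nav1.9 littermates and was lowest in the Nav1.8 littermates (adjusted p = 0.00685), the line with the largest 3′ to 5′ difference. The *Apoe* call was lost with the actin covariate (adjusted p = 0.686) and that of *Fabp7* was not (adjusted p = 0.00281). *Egr2* was lowest in the Nav1.9 littermates (9.33 ± 0.078, 9.10 ± 0.119 and 8.47 ± 0.176, SD, n = 3 each, adjusted p = 0.00103). *Cadm4*, a cell adhesion molecule between Schwann cells and axons, had line means of 8.97 ± 0.0345, 9.53 ± 0.147 and 9.73 ± 0.0869 (adjusted p = 0.000633).

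The 10 bright genes with the widest line differences were, besides *S100a8* and *S100a9*, *Gabarapl1*, *Cdk16*, *Rcan2*, *Lyz1*, *Srsf5*, *Capzb*, *Pcbp3* and *Ube2s*. *Gabarapl1*, an autophagy protein, read 10.66, 11.06 and 11.04 in the Nav1.7 littermates, 12.30, 12.31 and 12.23 in the Nav1.8 littermates and 12.74, 12.70 and 12.80 in the Nav1.9 littermates, and its lines do not overlap (adjusted p = 1.1e-05, 3.55-fold). Its other probe set had a mean of 10.85. *Cdk16*, a kinase of neurons, followed the same order, with line means of 10.52 ± 0.257, 11.51 ± 0.0967 and 12.13 ± 0.0364 (SD, n = 3 each, adjusted p = 8.88e-05), and so did *Rcan2*, an inhibitor of calcineurin, with 10.87 ± 0.182, 11.81 ± 0.013 and 12.33 ± 0.0955 (adjusted p = 3.06e-05). *Srsf5*, a splicing factor, was highest in the Nav1.9 littermates and lowest in the Nav1.8 littermates (10.95 ± 0.249, 10.61 ± 0.126 and 11.71 ± 0.153). Across all classes the widest were *Xist*, *Eif2s3y*, *Kdm5d*, *Uty*, *Sprr1a*, *Crh*, *Nt5dc1*, *Nts*, *Mid1* and *Atf3*. The call of *Crh*, a peptide precursor, was lost in 5 of the 9 fits that leave out 1 array (adjusted p up to 0.0611). *Nt5dc1* was 5.67-fold lower in the Nav1.7 littermates than in the highest line (4.69, 4.55 and 4.34 in the Nav1.7 littermates, 7.05, 6.97 and 7.07 in the Nav1.8 littermates and 6.82, 6.78 and 7.08 in the Nav1.9 littermates). *Mid1* varied inside the Nav1.8 line (5.86, 5.76 and 7.94), and its call did not pass in 4 of the 9 fits that leave out 1 array (adjusted p up to 0.102, without Nav1.8 littermate 1).

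Some genes stood apart in 1 array. In 19 genes 1 array was over 1 log2 unit below all of the other 8, and in 15 genes 1 array was as far above them. Nav1.9 littermate 1 held 11 of the former and 4 of the latter, and Nav1.8 littermates 2 and 3 held 0. Nav1.7 littermate 3 was below in *Nts*, *Nppb* and *Il31ra*, the last being the receptor of the itch cytokine IL-31. *Nppb* read 10.01, 10.27 and 7.88 in the Nav1.7 littermates, 9.85, 9.79 and 10.11 in the Nav1.8 littermates and 9.97, 9.98 and 10.02 in the Nav1.9 littermates, and *Il31ra* 9.22, 9.42 and 7.23 in the Nav1.7 littermates, 9.13, 8.93 and 9.01 in the Nav1.8 littermates and 8.84, 8.85 and 9.08 in the Nav1.9 littermates. Somatostatin, *Sst*, was also lowest in that array at 9.08, 9.07 and 6.98 in the Nav1.7 littermates, as was *Osmr*, the partner of *Il31ra*, at 10.49, 10.64 and 9.41. All of these are markers of 1 class of itch-sensing non-peptidergic neurons. *Mrgpra3*, a marker of another itch-sensing class, read 9.89, 9.71 and 9.77, and *P2rx3* 11.78, 11.89 and 11.76, without such a fall.

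Skeletal muscle genes were the other set that varied by array and not by line. *Acta1*, the actin of skeletal muscle, read 8.90, 8.04 and 9.95 in the Nav1.7 littermates, 9.82, 9.62 and 8.43 in the Nav1.8 littermates and 6.64, 10.56 and 9.06 in the Nav1.9 littermates, and the fast myosin *Myh4* 7.58, 7.17 and 9.20 in the Nav1.7 littermates, 9.09, 8.46 and 7.16 in the Nav1.8 littermates and 4.88, 9.96 and 8.25 in the Nav1.9 littermates. Nav1.9 littermate 1 was lowest and Nav1.9 littermate 2 highest for both genes, and limma called 0 of 12 muscle genes between lines, against 23.9% of all genes, with 0 at an unadjusted p under 0.05 (38.5% of all genes) and 0 by analysis of variance (17.8%). The mean of the 12 genes was 7.10, 6.39 and 7.84 in the Nav1.7 littermates, 7.61, 7.68 and 6.75 in the Nav1.8 littermates and 5.80, 8.19 and 7.04 in the Nav1.9 littermates. Fat cell genes also varied within lines, with *Adipoq* at 5.78 in Nav1.7 littermate 2 and 8.03 in Nav1.8 littermate 3. Their list mean was highest in Nav1.7 littermate 1 (6.65) and lowest in Nav1.7 littermate 2 (5.67). Of the 6, *Lep* was called (adjusted p = 0.0178, limma F test), against 23.9% of all genes. Its call was lost in 3 of the 9 fits that leave out 1 array (adjusted p up to 0.0529). Genes of spinal cord neurons and central glia did not vary like this: their list mean was 5.70 to 5.81 in the 9 arrays. Whether muscle left on the ganglia differed between dissections was not tested.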

How the data were processed

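RNA of whole DRG was hybridised to Affymetrix mouse genome expression arrays, of which the 9 littermate arrays were used. The authors deposited log2 intensities per probe set, made with Affymetrix Expression Console. Its version, the summary method and the normalization are not given in the sources used here, and the values were used as deposited. Of 45101 probe sets, 64 controls were left out, 34945 had 1 gene symbol in GEO's platform annotation, 932 had several and 9160 were not listed, which left 18193 genes, each represented by its brightest probe set. An array gives no read depth, and the number of arrays limits the precision.

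Line means were compared with limma 3.58.1 in R 4.3.3 (lmFit, eBayes, F test over 3 groups of 3 arrays, pairwise contrasts, Benjamini-Hochberg over all 18193 genes, threshold 0.05). The same fit was also run on data simulated with the means and spread of these arrays. Summaries used Python 3.11.15 with pandas 2.3.3 and numpy 2.4.6. Genes to name were the 25 brightest, the up to 4 brightest and 2 dimmest of each of 39 gene lists with its member of widest line range, the 3 channel genes, *Penk*, *Ceacam10*, *Runx1*, *Hoxb5*, *Avil* and the opioid receptors, the 10 steadiest bright genes, and the 10 bright genes and 10 genes of any class with the largest called line range. Other named genes, families and single-array departures were chosen after their values were seen. The members and lists were chosen with earlier results of these data known. Alternatives covered scaling, probe set choice, filters, array weights, the prior, the replicate block, analysis of variance and leaving out each array. Promoter sequences are from RefSeq (GRCm38.p6).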

Additional observations from a re-analysis of the deposited data

How the results depend on the processing

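The F test of 3 lines has no direction, so it cannot show a reversal. Calls of named genes were lost under some alternatives, among them those of *Apoe*, *Scn9a*, *S100a8* and *S100a9* with the actin covariate. The 18193 genes had 4345 calls and the bright class 499, and testing each probe set gave 8224 of 34945. Leaving out each array gave 2683 to 3907 calls in all and 291 to 446 among bright genes, lowest without Nav1.8 littermate 1 (2683) and without Nav1.8 littermate 2 (291 bright). Bright calls were 786 when the lower 50% of genes was left out, with 9096 genes tested, and 854 with a trended robust prior. The alternatives chosen after seeing the data, leaving out the Nav1.7 littermates, leaving out the Nav1.8 littermates and the actin covariate, gave 1272, 1377 and 1068 calls in all and 132, 140 and 108 among bright genes. For the pairs Nav1.8 minus Nav1.7, Nav1.9 minus Nav1.7 and Nav1.9 minus Nav1.8, testing each probe set gave 7155, 3292 and 4074 calls, and leaving out each array 2322 to 3902, 1072 to 1813 and 484 to 1629. Deviations from the line mean had r from -0.204 to 0.216 between arrays of the same number in different lines. Between arrays of different numbers r was -0.235 to 0.203. With 3 arrays a line, these values cannot decide whether the numbers pair the arrays. With the replicate block there were 3487 calls in all, 348 among bright genes and 3217, 1517 and 1162 for these pairs. The bright bound moved from 10.92 to 9.814 with the mean of all probe sets, 9.412 with the dimmest and 10.78 without cross-hybridizing probe sets, and stayed at 10.92 whichever array was left out. The cause of these shifts was not tested.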

Other observations

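Of the 10092 probe sets that carry no gene symbol or several, 343 (3.40%) lay above the bright bound, the brightest at 14.67, and are in no list.

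Genes that stood apart in 1 array were in part neighbours on a chromosome. *Tgm5*, *Pla2g4e* and *Tmem87a*, each highest in Nav1.7 littermate 1, lie on chromosome 2 with 5 and 16 listed genes between them. *Gm13238*, *Zfp991* and *Zfp979*, each lowest in Nav1.9 littermate 1, lie on chromosome 4 with 37 and 14 listed genes between them. *Pttg1*, a regulator of sister chromatid separation, was 8.09 in Nav1.9 littermate 1 and at least 11.82 in the other 8 arrays. In Nav1.9 littermate 3 the antibody genes *Ighm* (11.98), *Jchain* (9.24) and *Iglv1* (8.75) were higher than in every other array. In Nav1.8 littermate 1 the liver genes *Alb* (6.00) and *Serpina1c* (6.25) were. No cause of these departures was tested.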
